A study of Hordeum vulgare with 4 samples.

Results

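In barley leaves, 128 loci that wild-type plants transcribed at a clear level had values at least 4-fold lower in transgenic plants. The loci were chosen by the values of both groups themselves: transcript levels of each HORVU gene model spanning under 20000 bases were summed per locus, and a locus entered where wild type had 30 FPKM or more and wild type + 1 was at least 4 times transgenic + 1. They are 128 of 17771 loci in all, and 3.71% of the 3453 loci of the same kind that reached 30 FPKM in wild type. FPKM, fragments counted per transcript length and per sequencing depth, is a level per length, so that sums can be compared between loci. Because the same contrast chose the loci, the size of each difference and its p-value are given below as description and not as a test.

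The transgenic group had 2 samples and the wild-type group 2 samples, all leaf RNA of the cultivar Golden Promise from plants aged 3 weeks. The transgenic plants overexpressed HvHSFA6a, stated to be constitutive, and wild-type plants were not transformed. The sources used here do not give the promoter of the transgene, nor what the differing codes of the 2 transgenic samples stand for. The labels assign a heat treatment of 42 °C for 30 minutes to the transgenic samples and mark wild type as control, so genotype and labelled treatment cannot be told apart. Days of 16 h at 18 °C and nights at 16 °C were used for growth, and a 34 °C chamber is named for both genotypes.

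HSFA6a belongs to the heat stress transcription factors, proteins that bind short heat shock elements in promoters. Class A members of this family activate genes of chaperones, the heat shock proteins that keep other proteins folded, when a plant warms up. Steady RNA levels, the quantity measured here, reflect both transcription and decay. In bulk leaf RNA, fewer cells of a type and less RNA per cell cannot be told apart.

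The authors' deposited table held 1 whole-number FPKM value per group and transcript, for 51141 transcripts, and no value per sample was used. No difference below therefore has a replicate check, and depth is unknown. Summed over all transcripts, the 2 groups were nearly equal, at 949171 FPKM in transgenic leaves against 942627 in wild type. Leaf identity could be looked at through plastid genes alone: rbcL, for the large subunit of Rubisco, was listed at 123 FPKM in transgenic leaves against 190 in wild type, and psbA, for the D1 protein of photosystem II, at 94 and 65 FPKM. Directions rest on the column headers. The words for up and down in the authors' deposited table, read as transgenic over wild type, run against these headers. This holds for all 1255 transcripts that carry one, 152 of them in the lowered loci, where the word is up. Read as wild type over transgenic, the same words match the headers. The 185 transcripts of the lowered loci that the same table marks as specific to wild type are at 0 in the transgenic column, as the headers say. If the column headers were exchanged, the loci described here would be higher in transgenic leaves.

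The files pair the HORVU identifiers with no product, and none of the 128 names is in the RefSeq gene table of the MorexV3 assembly. The same holds for all 17670 HORVU names of the deposited table, so it is not a trait of the lowered loci. The loci are therefore given by chromosome and position, 2 of them by identifier as well, with no statement on function. Positions are those of the deposited table, counted from 1, and the sources used here do not name its genome build. In 16 of the 128 loci the stated interval is a block that also holds another gene.

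The lowered loci together had 5364 FPKM in transgenic leaves against 31342 FPKM in wild type, 5.84-fold lower. They made up 0.565% of all FPKM in transgenic leaves, against 3.32% in wild type. The transgenic sums ran from 0 to 1110 FPKM with a median of 12, and the wild-type sums from 30 to 5249 FPKM with a median of 80. In the transgenic group 93 of the 128 loci were under 30 FPKM, 24 were at 5 FPKM or less, and 8 were at 100 FPKM or more. The median difference was -2.55 on the scale of log2(FPKM + 1), transgenic over wild type. Over the 3325 other loci at 30 FPKM or more in wild type the same median was -0.22.

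**Figure D1:**
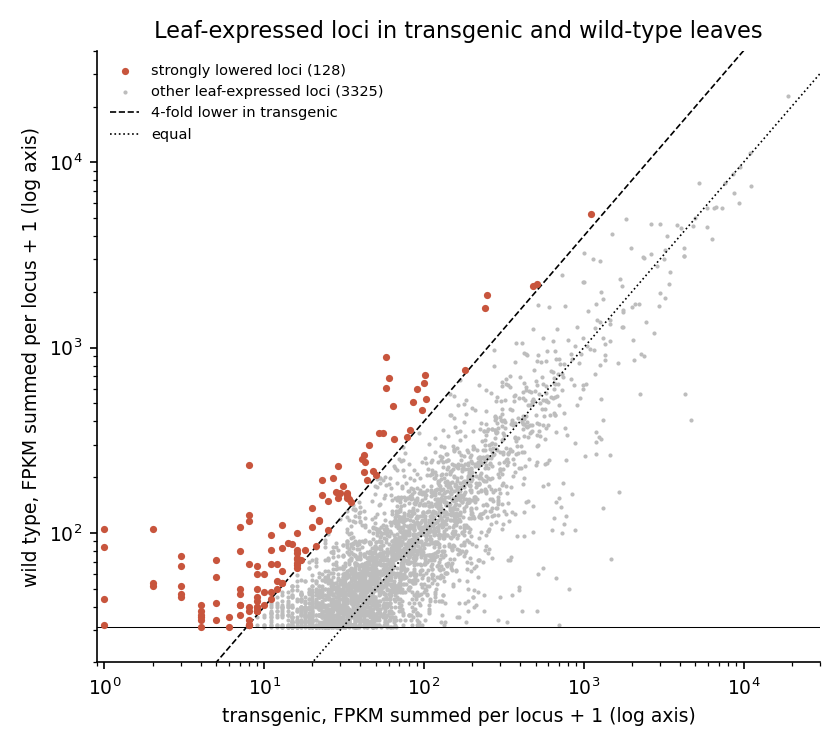
Summed FPKM per locus + 1 in transgenic leaves (x, log axis) and wild-type leaves (y, log axis); red points are the 128 lowered loci, grey points the 3325 other loci at 30 FPKM or more in wild type, the dashed line marks 4-fold lower, the dotted line equal values and the thin horizontal line the wild-type minimum. The lowered loci form the left edge of the cloud between 30 and 5249 FPKM in wild type.

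The size of the difference varied widely among the 128 loci. The ratio of wild type + 1 to transgenic + 1 was from 4 to under 5 in 45 loci, from 5 to under 8 in 51, from 8 to under 16 in 21 and 16 or more in 11. The 11 loci with the largest ratios all had 7 FPKM or less in transgenic leaves, and their median wild-type level was 65 FPKM. Just inside the ratio limit, at exactly 4, were 4 loci, such as that on 2H from 42963468 to 42967282 with 7 FPKM in transgenic leaves against 31 in wild type. Just outside it, at ratios from 3.97 to 3.99, was the 6H locus from 38571660 to 38575557 with 167 and 669 FPKM, followed by a 3H locus with 32 and 130 and a 7H locus with 29 and 118. The longest interval inside the span limit, 19627 bases on 5H, is a block that also holds another gene. The lowered locus in it had 22 FPKM in transgenic leaves against 191 in wild type. The shortest outside the limit, at 21739 bases on 3H, had 24 against 126. At the limit of level, the 1H locus from 9671046 to 9673298 was inside with 3 FPKM in transgenic leaves against 30 in wild type, and the 5H locus from 495934743 to 495939891 outside with 3 and 29.

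Highly transcribed loci were among the lowered ones. The top 5 in wild type held 42.0% of the wild-type sum of all 128, and without them the sum was 6.53-fold lower in transgenic leaves. The highest was on 3H from 698781540 to 698785140, with 1110 FPKM in transgenic leaves against 5249 in wild type, 4.73-fold lower, and rounding of its 6 transcripts bounds this between 4.71-fold and 4.74-fold. Its level in transgenic leaves was still the highest of the 128. The next, on 1H from 543160944 to 543162130, is a single transcript of 1187 nt with 505 FPKM in transgenic leaves against 2196 in wild type, 4.35-fold lower. A second 1H locus, from 99174025 to 99176800, had 478 and 2155 FPKM (4.51-fold lower).

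The next 2 in wild-type level differed more between groups. On 2H from 66441877 to 66445090, the transgenic group had 248 FPKM and wild type 1919, 7.74-fold lower. On 1H from 420656144 to 420660770, the values were 240 and 1643 FPKM, 6.85-fold lower. Among loci at 300 FPKM or more in wild type, the largest difference was on 5H from 598915631 to 598917736, at 57 FPKM in transgenic leaves against 892 in wild type, 15.6-fold lower with rounding bounds of 15.2-fold and 16.0-fold. For each of these 6 loci the authors' deposited table gives at least 1 transcript the smallest p it holds, 5e-05, which the Benjamini-Hochberg method adjusts to 0.00221.

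**Figure D2:**
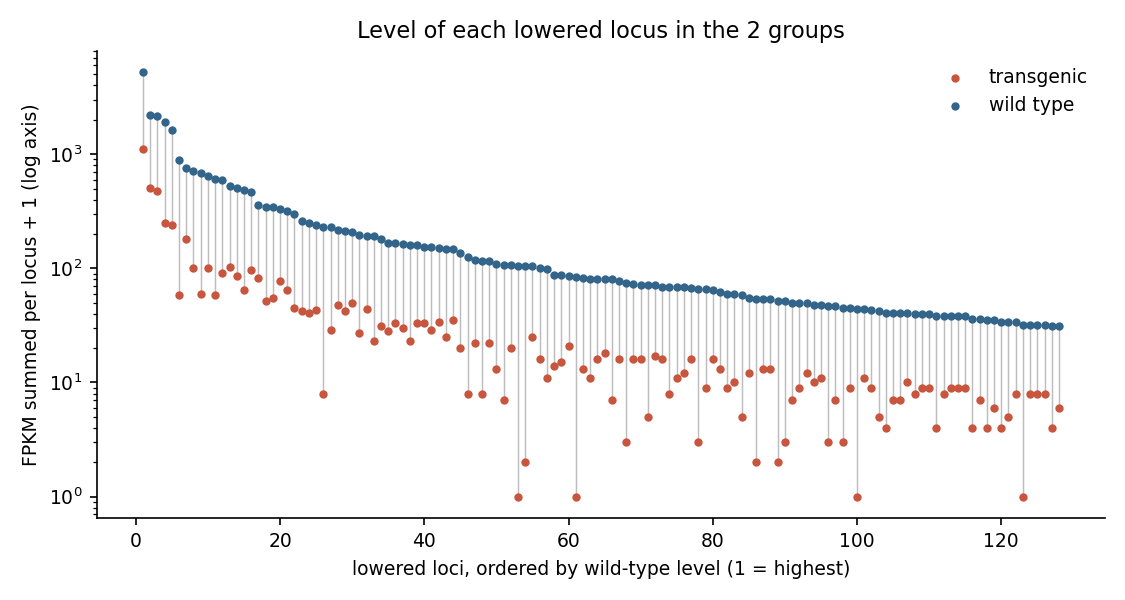
Summed FPKM + 1 (log axis) of each of the 128 lowered loci, in order of wild-type level, with the transgenic value in red and the wild-type value in blue joined by a line. The gap is of similar height over most of the order, and the lowest red points, at 0 or 1 FPKM, all belong to loci of 104 FPKM or less in wild type.

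A small number of loci were listed at 0 in transgenic leaves. HORVU5Hr1G099910, on 5H from 610981225 to 610981509, had 0 FPKM in transgenic leaves against 104 in wild type, and HORVU1Hr1G063240, on 1H from 454173311 to 454174483, had 0 and 83 FPKM. The first rests on a single transcript of 162 nt, a length at which FPKM is sensitive to few fragments, while that of the second has 1173 nt and covers its locus without an intron. The other 2 were on 6H from 372099616 to 372104194, with 0 and 43 FPKM, and on 7H from 600408142 to 600410603, with 0 and 31 FPKM. A listed 0 can stand for any value that rounds to 0, so no fold is given.

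Their p-values in the authors' deposited table differed widely. HORVU5Hr1G099910 had 5e-05, and so did each of the 3 transcripts of the 7H locus, which were listed at 0 FPKM in transgenic leaves and at 25, 3 and 3 in wild type. For HORVU1Hr1G063240 the authors' deposited table gives p = 0.0062, which the Benjamini-Hochberg method adjusts to 0.110. On 6H the largest transcript, with 0 FPKM in transgenic leaves against 29 in wild type, carried p = 0.195 in the authors' deposited table. A value of 0 against a clear wild-type level therefore came with p-values on both sides of the threshold.

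Among loci above 0 in both groups, the largest ratio was on 6H from 460085959 to 460095864, with 1 FPKM in transgenic leaves against 104 in wild type. All 7 of its transcripts were lower, 6 of them listed at 0 in transgenic leaves, and rounding leaves the fold of the sum anywhere from 22.3 to 215. The other gene in its block, with 0 FPKM in transgenic leaves against 9 in wild type, had none under 0.05 among its p-values in the authors' deposited table. On 5H from 623520556 to 623525019, the sums were 7 and 231 FPKM (33.0-fold lower, 22.8-fold to 42.5-fold with rounding). Single-transcript loci on 2H from 424599149 to 424600109 and on 5H from 623107407 to 623108808 had 1 FPKM in transgenic leaves and 53 and 51 in wild type. At such low transgenic values rounding decides much of the fold: 53.0-fold for the 2H locus is bounded by 35.0-fold and 107-fold.

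Values were also read transcript by transcript; since the sums chose the loci, a lower value of their larger transcripts is largely fixed by the choice, and wholly so in the 24 loci with 1 transcript. The 128 loci held 560 transcripts, 536 of which matched a reference transcript in full (class code =) and 24 of which were new splice forms (class code j). Of the 560, 509 had a lower value in transgenic leaves, 34 a higher one and 17 the same. All 252 transcripts at 10 FPKM or more in wild type were lower in transgenic leaves, 251 by a ratio of at least 2 and 216 by a ratio of at least 4 after adding 1 FPKM to each value. The transcripts that went the other way were small: the highest had 20 FPKM in transgenic leaves against 6 in wild type, and the authors' deposited table gives none of the 34 a p under 0.05. Of the 104 loci with 2 or more transcripts, 83 held none that was higher in transgenic leaves and 72 had every transcript lower.

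**Figure D3:**
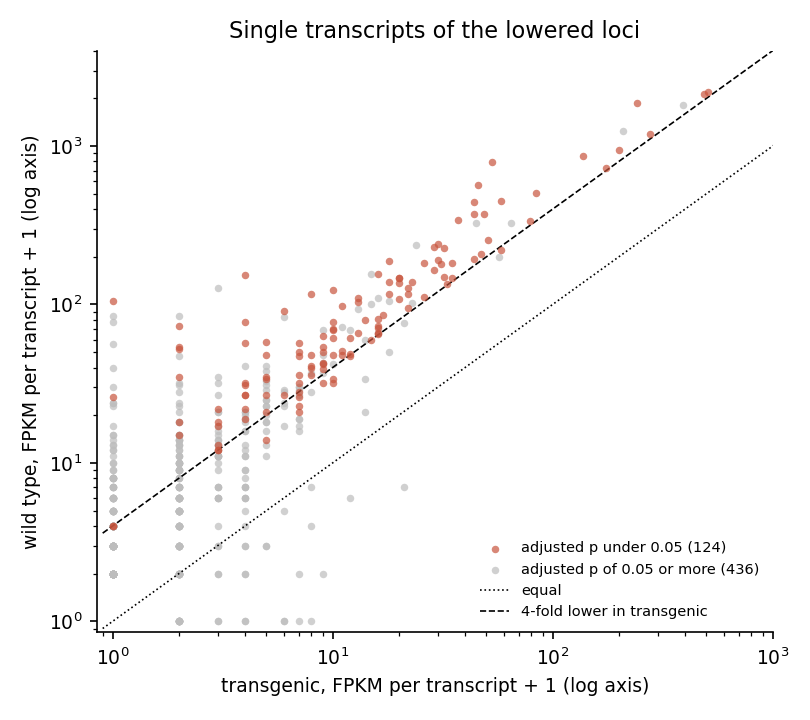
FPKM + 1 of each of the 560 transcripts of the lowered loci in transgenic leaves (x, log axis) and wild-type leaves (y, log axis), red where the Benjamini-Hochberg adjusted p is under 0.05 (124) and grey otherwise; the dashed line marks 4-fold lower and the dotted line equal values. The few points below the dotted line lie at 20 FPKM or less in transgenic leaves.

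The main transcript, the one with the most FPKM in wild type, held a median of 74.9% of the wild-type sum of its locus. In 104 of 128 loci it held over 50%, and in 36 it held 90% or more. Other loci at 30 FPKM or more in wild type gave a median of 73.3%, so a dominant transcript is common among them too. The number of transcripts per locus had a median of 4 among the lowered loci and 3 among the others. Of the 102 lowered loci with several transcripts and a transgenic sum above 0, 84 had the same main transcript in both groups. With all loci counted and ties decided by transcript name, the share was 85.2% in the lowered loci and 91.3% in the others. It was 84.4% in the 295 loci that were higher in transgenic leaves by the same limits. These shares were not tested.

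On 2H from 66441877 to 66445090, for example, 1 transcript of 1080 nt had 240 FPKM in transgenic leaves against 1857 in wild type, 96.8% of the wild-type sum. Its 3 minor transcripts had 4, 4 and 0 FPKM in transgenic leaves and 30, 28 and 4 in wild type, so that all of them were lower. On 1H from 420656144 to 420660770, 3 transcripts that start at different sites were lower to a like degree: 137 against 863 FPKM, 57 against 448 and 44 against 324, transgenic and wild type in each pair. The first 2 passed (5e-05 in the authors' deposited table, Benjamini-Hochberg adjusted 0.00221), and the last did not, at 0.0236 and an adjusted p of 0.284.

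Unlike these, the 2H locus from 715916733 to 715930579 differed in make-up between the groups. Its sum was 40 FPKM in transgenic leaves against 249 in wild type. The 2 transcripts that led in wild type had 2 and 1 FPKM in transgenic leaves and 127 and 83 in wild type. A transcript of 1784 nt from another start site had 20 FPKM in transgenic leaves against 6 in wild type, and another of 1934 nt had 8 and 1. None of its 10 transcripts passed, with p-values in the authors' deposited table of 0.04 for the leading one and 0.319 for the one that was higher in transgenic leaves.

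The locus with the most transcripts, 17 on 7H from 385861847 to 385872384, had 100 FPKM in transgenic leaves against 709 in wild type. Its 3 largest transcripts had 36, 17 and 17 FPKM in transgenic leaves and 339, 186 and 104 in wild type. A further transcript of 3008 nt had 11 FPKM in transgenic leaves against 5 in wild type, for which the authors' deposited table gives p = 0.448. On 4H from 36723135 to 36724503, with 84 FPKM in transgenic leaves against 505 in wild type, a transcript of 366 nt had 7 FPKM in transgenic leaves and was listed at 0 in wild type. Its main transcript, at 48 FPKM in transgenic leaves against 369 in wild type, went the way of the sum. In all, 21 loci held at least 1 transcript with a higher value in transgenic leaves.

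By p-values in the authors' deposited table, 106 of the 128 loci held a lower transcript with a Benjamini-Hochberg adjusted p under 0.05, adjusted over all 51141 transcripts. Over all 17771 loci the share was 4.34%, and over the 3453 loci at 30 FPKM or more in wild type it was 11.6%; since the loci were chosen by the same contrast, their count is not evidence for the choice. Without adjustment, 120 of 128 held a lower transcript with p under 0.05. That share was 13.2% over all loci and 24.0% over the 3325 other loci at 30 FPKM or more in wild type. Per transcript, 124 of 560 passed and 179 had an unadjusted p under 0.05, and over all 51141 transcripts 1.58% and 5.06% did so with a lower value in transgenic leaves. The smallest p of the table, 5e-05, was reached in 87 loci (68.0%). In either direction, 6.29% of the 3325 other loci at 30 FPKM or more in wild type reached it. So did 76.3% of the 295 loci that were higher in transgenic leaves by the same limits. The main transcript itself passed in 97 loci, and in 9 others a minor transcript passed while the main one did not.

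Among the lowered loci, support differed with level. Over all 3453 loci at 30 FPKM or more in wild type, 11.6% held a passing lower transcript. Calls were not counted by level in the other loci, so the differences below cannot be read as particular to the lowered ones. Of the 38 lowered loci from 30 to under 50 FPKM in wild type 25 held a passing transcript, of the 35 from 50 to under 100 FPKM 28 did, of the 34 from 100 to under 300 FPKM 32 did, and all 21 at 300 FPKM or more did. The 22 loci without a passing transcript had a median of 44.5 FPKM in wild type and the 106 with one a median of 101. Loci with 1 transcript held a passing one in 22 of 24 cases. In 8 of the 22 loci without a passing transcript, no transcript reached an unadjusted p under 0.05. One was the 7H locus from 509995575 to 509999945, whose main transcript had 0 FPKM in transgenic leaves against 76 in wild type, with p = 0.248 in the authors' deposited table.

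Passing was also counted by whether a transcript was listed at 0 in transgenic leaves. Of the 19 transcripts of lowered loci at 0 in transgenic leaves and 10 FPKM or more in wild type, 2 passed (10.5%), with a median p of 0.169 by the authors' deposited table. Of the 233 that were above 0 in transgenic leaves at the same wild-type minimum, 120 passed (51.5%), with a median p of 0.0017. Median wild-type levels were 22 FPKM for the 19 and 38 FPKM for the 233. Over all transcripts with a 4-fold lower value and the same minimum, 11 of 134 at 0 and 186 of 479 above 0 passed (8.21% and 38.8%). Neither difference was tested.

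**Figure D4:**
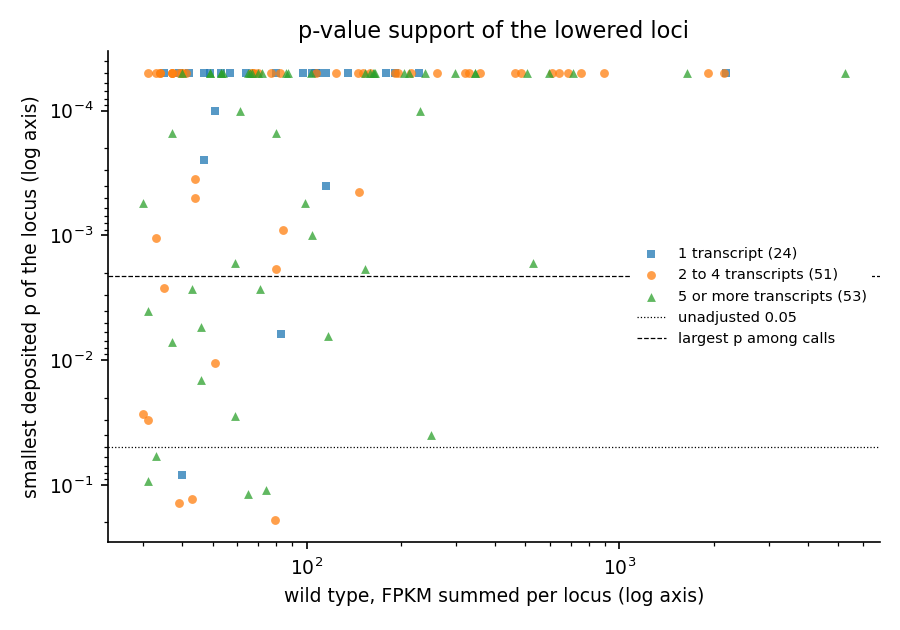
Smallest p of each lowered locus in the authors' deposited table (y, log axis, small values at the top) against its summed wild-type FPKM (x, log axis), with squares for 1 transcript, circles for 2 to 4 and triangles for 5 or more; the dashed line is the largest p among adjusted calls and the dotted line 0.05. Loci at 300 FPKM or more all lie above the dashed line, and most points sit on the smallest p of 5e-05.

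The length of the main transcript and the span on the chromosome were set beside those of other loci. The main transcript had a median length of 1200 nt, and 1264 nt in the other loci at 30 FPKM or more in wild type. The median span was 2995 bases in the lowered loci and 4016 in the others, and 30.5% of lowered loci spanned under 2000 bases against 15.9% of the others. In 12.5% of the lowered loci and 10.1% of the others the stated span is that of a block shared with another gene. Spans were short as well in the 295 loci that were higher in transgenic leaves by the same limits, which had a median span of 2328 bases, with 43.1% under 2000. Of all loci at 30 FPKM or more in wild type, 10.8% of the 120 spanning under 1000 bases were among the lowered ones, 5.79% of the 449 from 1000 to under 2000, 3.10% of the 1615 from 2000 to under 5000, 2.69% of the 967 from 5000 to under 10000 and 4.30% of the 302 from 10000 to under 20000. Loci with 1 transcript that fills its whole span, and so has no intron, were 14 of 128, or 10.9%, against 3.40% of the others and 14.6% of the 295 higher loci. These shares are descriptions, and no test of them was made.

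Main transcripts under 300 nt were found in 10 lowered loci (7.81%), against 2.23% of the other loci and 4.75% of the 295 higher loci. The highest of them, on 6H from 14301793 to 14307089, had 96 FPKM in transgenic leaves against 462 in wild type, with a main transcript of 260 nt whose p is 0.0126 in the authors' deposited table and a longer one that passed. Of the 10, 6 held a passing lower transcript, against 106 of all 128 lowered loci. The share was 4.34% over all loci and 11.6% over the 3453 loci at 30 FPKM or more in wild type. Calls were not counted by length in the other loci. By wild-type level, 3.18% of loci from 30 to under 50 FPKM were among the lowered ones, 3.22% from 50 to under 100 FPKM, 4.05% from 100 to under 300 FPKM, 6.56% from 300 to under 1000 FPKM and 5.68% at 1000 FPKM or more.

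Lowered loci were found on all 7 chromosomes and once on unplaced sequence. Counts were 25 on 7H, 24 on 5H, 20 on 2H, 17 on 1H, 14 each on 3H and 4H, and 13 on 6H. As a share of the loci at 30 FPKM or more in wild type, this was between 2.77% on 3H and 5.33% on 7H. Barley chromosomes carry most of their genes towards both ends, and the middle is gene-poor. Measured to the nearer end of the range of loci on its chromosome, 67 of 127 placed lowered loci (52.8%) lay within 10% of the chromosome's range, against 38.7% of the other loci of that level. The median distance was 8.62% and 14.5% of the range. Of the placed loci that were higher in transgenic leaves by the same limits, 46.8% lay within 10%. No test was made of these shares.

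Some lowered loci were neighbours. In 10 places, 22 lowered loci lay within 500 kb of another, and in 5 of these no further locus of the table stood between them. No such count was made for other loci, so this closeness cannot be read as particular to the lowered ones. On 3H, 2 loci at 628213036 to 628215684 and 628222852 to 628224487 are 7.17 kb apart. They had 59 and 63 FPKM in transgenic leaves and 682 and 483 in wild type, 11.6-fold and 7.67-fold lower, and the loci on either side were under 10 FPKM in both groups. On 5H from 28159291 to 28340538, 3 lowered loci had 22, 28 and 19 FPKM in transgenic leaves and 191, 228 and 107 in wild type. The 2 units between them went the other way without passing, with 30 and 10 FPKM in transgenic leaves and 22 and 2 in wild type.

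On 1H, the loci from 548676518 to 548677715 and from 548687150 to 548688156 had 47 and 77 FPKM in transgenic leaves and 216 and 329 in wild type. The next locus along, with 145 FPKM in transgenic leaves against 561 in wild type, stayed just short of the ratio limit and held a passing lower transcript. On 6H, 2 lowered loci between 38138862 and 38405685 had 32 and 15 FPKM in transgenic leaves and 154 and 80 in wild type. Beyond them followed 3 loci with 92, 519 and 167 FPKM in transgenic leaves and 345, 1707 and 669 in wild type, again short of the limit. Each of these 3 held a passing lower transcript. On 2H from 625540117 to 625773430, 3 lowered loci had 11, 13 and 10 FPKM in transgenic leaves and 67, 87 and 67 in wild type. The other 5 places hold 2 lowered loci each. On 5H, the pair between 438233585 and 438404116 had 7 and 4 FPKM in transgenic leaves against 124 and 57 in wild type, and the pair between 598393534 and 598408523 had 16 and 8 against 70 and 37. The pair on 5H between 623107407 and 623525019, already described, summed to 8 FPKM in transgenic leaves against 282 in wild type. On 3H between 626799114 and 626856120 the pair had 17 and 15 FPKM in transgenic leaves against 80 and 68 in wild type, and on 7H between 182735703 and 182987664 it had 49 and 34 against 205 and 146. Whether neighbours share reads through similar sequence was not tested.

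**Figure D5:**
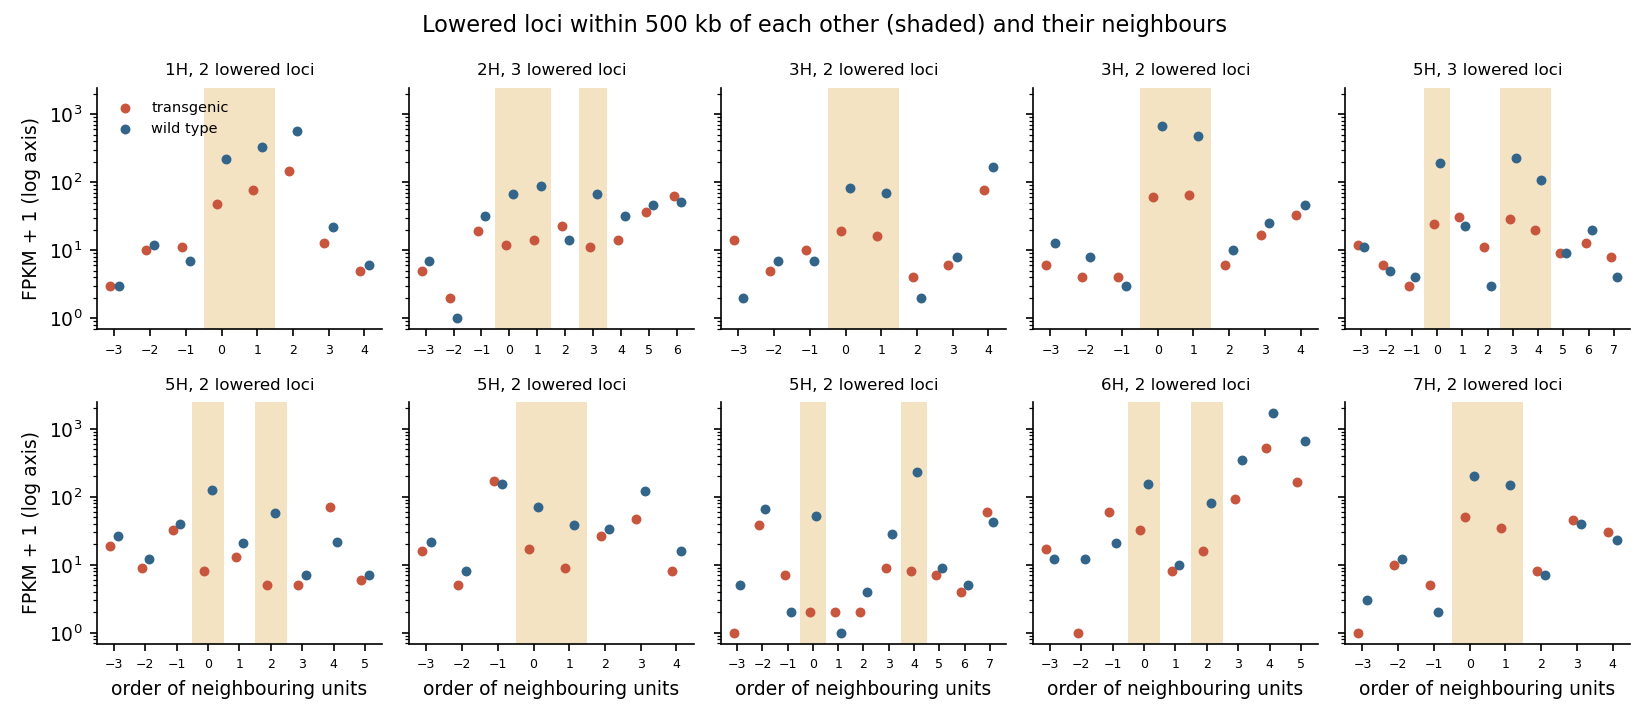
FPKM + 1 (log axis) of transgenic (red) and wild-type (blue) leaves for the 10 places where lowered loci, shaded, lie within 500 kb of each other, with 3 units on each side in chromosome order; overlapping loci form 1 unit. Blue stands far above red in the shaded units, which were chosen by that difference. The 8 unshaded units between them are 4 lower and 4 higher in transgenic leaves, with no call. Of the unshaded units on the outer sides, some on 1H and 6H held a passing lower transcript, and some on 3H, 5H and 6H a passing higher one.

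Most of the nearest neighbours held no call. Of the 237 units next to a lowered locus, 138 had a lower value in transgenic leaves, 80 a higher one and 19 the same, and 17 held a passing lower transcript (7.17%) and 15 a passing higher one. The median difference of these neighbours was -0.21 on the log2(FPKM + 1) scale. Units next to the other loci at 30 FPKM or more in wild type had a median of 0.00, and of these 5560 units 224 held a passing lower transcript (4.03%) and 415 a passing higher one. In the 16 shared blocks, the 17 other genes had at most 21 FPKM in wild type, 9 were lower in transgenic leaves, 5 higher and 3 the same, and the authors' deposited table gives none of them a p under 0.05.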

How the data were processed

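RNA of 4 leaf samples was sequenced, 2 per group, with groups taken from the labels. The library kit was SMARTER mRNA-seq (labels' protocols). The submitters' processing notes name STAR, Bowtie2, RSEM and DESeq2, with neither version nor role. The authors deposited FPKM rounded to whole numbers, a score with 1 value per group, per the file headers; the sources used here do not say how samples were combined. The authors' p-value per transcript was used as deposited, and the sources used here do not name the test behind it. No p in the authors' deposited table is under 5e-05, so the loci that share this value cannot be ranked by p.

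With 1 value per group no fit over samples could be made. FPKM were summed per locus, and the authors' p-values were adjusted by the Benjamini-Hochberg method over all 51141 transcripts, with passing meaning an adjusted p under 0.05. Fold bounds take a rounding error of 0.5 FPKM in every transcript. Depth per sample is unknown. The labels do not say that samples came from separate plants, so the authors' p-values may measure technical spread only. Loci named by rule are the 5 highest in wild type, the 5 largest ratios, those at 0, those nearest the limits, neighbouring lowered loci, and the 3 with the largest transcripts that were higher in transgenic leaves. The 5H locus at 598915631, the 2H locus at 424599149, the 6H locus at 14301793 and the 7H locus at 509995575 were named after their values were seen, as were the split by listed 0 and the level bins. The loci, the rule and the lists were chosen with earlier results of these data known. Python 3.11.15, pandas 2.3.3, numpy 2.4.6, scipy 1.17.1 and matplotlib 3.10.9 were used.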

Additional observations from a re-analysis of the deposited data

How the results depend on the processing

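The number of lowered loci, 128, follows from the ratio limit: a ratio of 3 gave 248 loci and a ratio of 6 gave 59, of which 198 and 45 held a passing lower transcript. Under the 12 other alternatives for the choice the number was between 90 and 165, with 94 where every value was moved within its rounding so as to make the difference smallest. Of these, 3 were chosen after seeing the data: centring transgenic values on the median ratio of well-measured transcripts (108), leaving out shared blocks (112) and leaving out main transcripts under 300 nt (118). The median ratio ranged from 4.02 to 8.46 and the median main length from 1171.5 to 1368 nt over all 14. With 1 test per locus 103 loci passed. The count of loci with a transcript that was higher in transgenic leaves, 21, moved by over 1.5 times under 6 of 14 alternatives, between 8 and 53. No paired analysis was possible because each group has a single deposited value, and no sample could be left out for the same reason. Whole numbers limit precision below about 5 FPKM.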

Other observations

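Limits on name and span kept 21 loci out that met the same level and ratio. Of these, 15 are HORVU loci spanning 20000 bases or more, and 14 of the 15 held a passing lower transcript (Benjamini-Hochberg adjusted p under 0.05). That share was 4.34% over all loci, and the same contrast chose the 15, so their count is not evidence for the choice. The 4H interval from 638223190 to 638275418 is a block that holds more than 1 of the 15. The largest differences among the 15 were on 3H, from 208334818 to 208368758 with 1 FPKM in transgenic leaves against 181 in wild type, and from 688041803 to 688084440 with 0 and 72 FPKM.

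The other 6 carry names of short plastid or small RNA genes, and none passed. The transfer RNA gene trnL-UAA was listed at 0 FPKM in transgenic leaves against 2152 in wild type, and petN, for a small subunit of the cytochrome b6f complex, at 0 and 180. The plastid 5S ribosomal RNA had 1798 FPKM in transgenic leaves against 8093 in wild type. The remaining 3 are named as small nucleolar RNA and had 0, 0 and 43 FPKM in transgenic leaves and 113, 60 and 195 in wild type.

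By the same limits, 295 loci were higher in transgenic leaves, 8.67% of the loci at 30 FPKM or more there, while the 128 lower loci were 3.71% of those at 30 FPKM or more in wild type.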
